A study of Mus musculus with 21 samples.

Results

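Vasopressin and oxytocin transcripts were followed together with the corticotropin-releasing hormone gene and its binding protein across the whole dietary series. The 4 genes *Avp*, *Oxt*, *Crh* and *Crhbp* were chosen by symbol, each matched 1 line of the count table, and they made up 4 of its 21654 genes. Libraries came from punches of the ventral hypothalamus (VH), a region around the third ventricle, of male C57/BL6 (C57BL/6J) mice acquired at 12 to 14 weeks of age. Each of the 21 polyA RNA libraries pooled punches of 2 mice of the same group. RC NoDS mice (labelled RC Only, n = 5) ate regular chow (RC) throughout, HFD NoDS mice (labelled HFD Only, n = 5) ate a high-fat diet (HFD) throughout, RC → HFD mice (n = 6) were moved from chow to the high-fat diet a week before collection, and HFD → RC mice (n = 5) were moved the opposite way. Mice of all 4 groups were kept awake for 3 hours with unfamiliar objects and were killed in the light phase, at Zeitgeber time (ZT) 6. Each library held between 16380781 and 16390598 reads counted on genes, after reads had been drawn down to a shared depth, which evened out the totals but not the genes with reads, of which there were 15686 to 18247.

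*Avp* and *Oxt* encode the precursors of vasopressin, which acts on the kidney and on blood vessels, and of oxytocin, which acts on the uterus and the mammary gland, and both precursors also contain a neurophysin carrier. Large neurosecretory cells of the paraventricular and supraoptic nuclei make them and release them in the posterior pituitary, and vasopressin is also made in the suprachiasmatic nucleus. *Crh* encodes the peptide with which paraventricular neurons drive pituitary corticotropin, and *Crhbp* encodes a secreted protein that binds it.

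The 4 genes differed widely in level. Per kilobase of exon, *Avp* averaged 18160 reads, which placed it at rank 6 of the 12768 genes averaging at least 50 reads (High Filter). *Oxt* averaged 8938 reads per kilobase and took rank 40 on the same scale. *Crhbp* averaged 62.7 reads per kilobase, at rank 9550. *Crh*, in contrast, was barely read. It averaged 8.14 raw reads per library and 6.18 reads per kilobase, and it failed the High Filter while passing the filter of 5 reads (Low Filter), so 3 of the 4 genes passed the first filter and 4 of 4 the second. The paper describes the punches as enriched for the arcuate, ventromedial and paraventricular nuclei. With so few *Crh* reads, a name taken from the paraventricular nucleus is poorly supported by that gene here. *Sim1*, a transcription factor needed for that nucleus, ran from 8 to 95 reads per library and *Otp*, a second such factor, which other hypothalamic nuclei also express, from 496 to 1174, and the counts do not say which nucleus the *Avp* and *Oxt* reads came from.

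*Avp* was read heavily in every library and varied more within groups than between them. In RC NoDS, 3604, 9756, 11242, 13168 and 18370 reads were counted in replicates 1, 2, 3, 5 and 6. In HFD NoDS, replicates 19, 20, 21, 23 and 24 had 1681, 12775, 9121, 22071 and 14012 reads. The lowest and the highest library of the whole series thus belonged to the same diet group, HFD NoDS replicates 19 and 23, and the RC NoDS libraries all lay between them. In RC → HFD the lowest library had 2924 reads, the median was 12139 and the highest 14164. In HFD → RC, replicates 13 to 17 had 4414, 16531, 8146, 5971 and 5497 reads. Replicate 8 of RC → HFD lay under the 5 other libraries of its group, replicate 14 of HFD → RC lay over its 4 others, and all 4 groups overlapped. HFD NoDS had the highest mean at 11930 ± 7430 reads (SD, n = 5), followed by RC NoDS at 11230 ± 5360 (n = 5), RC → HFD at 10610 ± 4060 (n = 6) and HFD → RC at 8112 ± 4900 (n = 5). No neighbours in that order differed beyond their spread, and the highest library exceeded the lowest 13.1-fold while the highest group mean (TMM-scaled) exceeded the lowest 1.46-fold.

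*Oxt* followed a similar layout over a narrower range. RC NoDS replicates 1, 2, 3, 5 and 6 had 2464, 3775, 5123, 6822 and 7770 reads. HFD NoDS replicates 19, 20, 21, 23 and 24 had 1641, 5179, 5070, 7699 and 4882 reads. Replicate 19 was again the lowest of all, and the groups overlapped over most of their range. In RC → HFD the lowest library had 2265 reads, the median was 5063 and the highest 6293. HFD → RC replicates 13 to 17 had 2323, 8634, 4670, 3019 and 2891 reads. Replicate 14 of HFD → RC was the highest of the 21 libraries, whereas for *Avp* it was the highest of its group only, and replicate 8 of RC → HFD was the lowest of its group for both genes. Group means ran from 5191 ± 2170 reads (SD, n = 5) in RC NoDS through 4894 ± 2150 (n = 5) in HFD NoDS and 4793 ± 1450 (n = 6) in RC → HFD to 4307 ± 2570 (n = 5) in HFD → RC, and no neighbours in that order differed beyond their spread.

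*Crhbp* reads numbered from 41 to 153. RC NoDS replicates 1, 2, 3, 5 and 6 had 145, 83, 94, 72 and 112 reads. HFD NoDS replicates 19, 20, 21, 23 and 24 had 131, 90, 107, 53 and 144 reads. Replicates 1 and 19, which were the lowest of their groups for *Avp*, were the highest and the second highest for *Crhbp*. In RC → HFD the lowest library had 57 reads, the median was 132 and the highest 153. HFD → RC replicates 13 to 17 had 130, 74, 41, 112 and 132 reads. The groups overlapped, with means of 116.5 ± 38.3 (SD, n = 6) in RC → HFD, 105 ± 35.8 (n = 5) in HFD NoDS, 101.2 ± 28.6 (n = 5) in RC NoDS and 97.8 ± 39.4 (n = 5) in HFD → RC.

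*Crh* was sparse, with 0 reads in 7 libraries and no more than 38 in any, and 171 reads were counted in all 21 together. RC NoDS replicates 1, 2, 3, 5 and 6 had 10, 0, 0, 8 and 8 reads. HFD NoDS replicates 19, 20, 21, 23 and 24 had 0, 0, 0, 6 and 1 reads. No more than 7 reads thus stood behind the whole HFD NoDS group, 6 of them in replicate 23. In RC → HFD the lowest library had 1 read, the median was 14 and the highest 38. HFD → RC replicates 13 to 17 had 16, 0, 3, 0 and 26 reads. A count of 0 allows up to 3 reads among the 16386024 of a median library, or 2.27 reads per kilobase of *Crh*, so that low amounts were not detectable at this depth, and this limit covers counting error only. RC → HFD was the group with no library at 0, and its libraries overlapped with those of the 3 other groups. In the 7 libraries with no *Crh* read, between 2.34% and 32.9% of the genes averaging 5 to 50 reads were also at 0 (median 15.1%), against 1.12% to 31.9% (median 7.46%) in the other 14. Over the 21 libraries that share and log2 reads of *Crh* gave Pearson's r of -0.0358 (permutation p = 0.877) and Spearman's rho of -0.0278 (permutation p = 0.906, adjusted 0.906 over the 4 genes). *Crhbp* had more reads than *Crh* in 21 of 21 libraries.

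**Figure D1:**
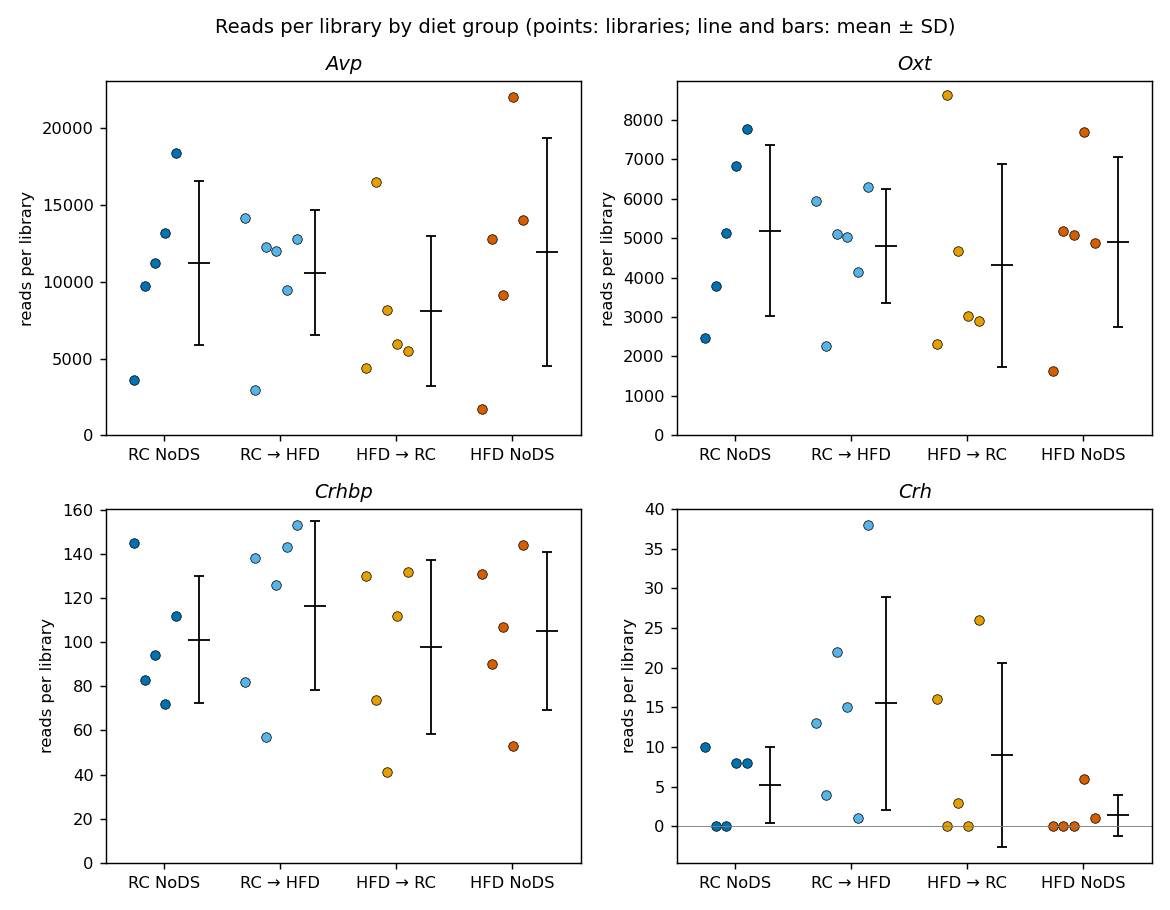
Reads per library of Avp, Oxt, Crhbp and Crh (vertical axes, raw reads on linear scales) in the 4 diet groups; points are libraries, and the line with bars beside them gives the mean ± SD (n = 5, 6, 5 and 5). The groups overlap for each gene, and Avp spans 1681 to 22071 reads within HFD NoDS.

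The comparison of RC NoDS v HFD NoDS asks which transcripts go with long-term high-fat feeding and obesity. None of the 3 genes passing the High Filter was called (edgeR, adjusted p under 0.15), against 10 of 12768 genes tested, or 0.0783%. For *Avp* the log2 fold change, HFD NoDS minus RC NoDS, was 0.10 ± 0.44 (SE, adjusted p = 0.966), and its 95% interval ran from 0.573-fold to 2.00-fold. For *Oxt* it was -0.07 ± 0.33 (adjusted p = 0.967), with an interval of 0.591-fold to 1.53-fold. For *Crhbp* it was 0.07 ± 0.32 (adjusted p = 0.966), with an interval of 0.665-fold to 1.66-fold. These intervals leave room for differences of about the size of the spread between libraries, and ones of that size or smaller could go uncalled with 5 libraries a group. The sign for *Avp* rested on single libraries, since the value was -0.13 without RC NoDS replicate 1 and -0.24 without HFD NoDS replicate 23. That for *Oxt* did too, at 0.051 and 0.12 without RC NoDS replicates 5 and 6 and 0.15 without HFD NoDS replicate 19, and that for *Crhbp*, at -0.025 without RC NoDS replicate 5, -0.024 without HFD NoDS replicate 19 and -0.061 without HFD NoDS replicate 24. *Crh* was tested among the 15884 genes of the Low Filter, of which 10 (0.063%) were called, and its value of -1.80 ± 1.33 (adjusted p = 0.845) was not. Without HFD NoDS replicate 23, which held 6 of the 7 reads of its group, the value was -3.82, with an unadjusted p under 0.05, and was not called either. Genes averaging 5 to 50 reads were at 0 more often in every HFD NoDS library (7.70% to 32.9% of them) than in any RC NoDS library (1.12% to 7.22%), and the part of this in the *Crh* value was not tested.

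RC → HFD v HFD → RC sets mice of similar weight but opposite recent diet against each other. None of the 3 genes was called, against 1 of 12768 genes (0.00783%). The log2 fold change of *Avp*, HFD → RC minus RC → HFD, was -0.39 ± 0.42 (SE, adjusted p = 1.00). Dropping replicate 14 from HFD → RC gave -0.82, and dropping replicate 13 gave -0.23. That of *Oxt* was -0.15 ± 0.32 (adjusted p = 1.00), and it was 0.0029 without HFD → RC replicate 13. That of *Crhbp* was -0.26 ± 0.31 (adjusted p = 1.00). With mean log2 CPM of *Sim1* and *Otp* as a covariate, the values were -0.96 for *Avp* and -0.64 for *Oxt*, both under an unadjusted p of 0.05 and neither called. The covariate was not level between groups. *Sim1* averaged 56.6 reads in HFD → RC and 39.8 in RC → HFD, and *Otp* 679.8 and 642.8. In edgeR *Otp* had an unadjusted p under 0.05 in RC → HFD minus RC NoDS and in the interaction. Without the covariate, the 95% interval reached from 0.419-fold to 1.40-fold for *Avp*, from 0.570-fold to 1.42-fold for *Oxt* and from 0.538-fold to 1.30-fold for *Crhbp*. *Crh*, under the Low Filter, had a value of -0.79 ± 1.12 (adjusted p = 0.999) and was not called either, against 2 of 15884 genes (0.0126%). That value ran from -1.68 without HFD → RC replicate 17 to -0.30 without RC → HFD replicate 12, and it was -1.65 under limma-voom.

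Across all 4 groups at once, 19 genes (0.149%) were called under the High Filter and 20 (0.126%) under the Low Filter, and none of the 4 genes was among them. The adjusted p was 0.906 for *Avp*, 0.972 for *Oxt*, 0.951 for *Crhbp* and 0.762 for *Crh*. Differences between group means took up 3.37% of the variance of log2 reads for *Avp*, 3.08% for *Oxt* and 4.31% for *Crhbp*, so that nearly all of their variation lay between libraries of the same diet. For *Crh* the share was 29.0%, on the few reads given above.

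Splitting the groups by the diet eaten at collection and the diet eaten before the switch gave the same picture. Of all genes, 6 (0.047%) were called for the current diet and 9 (0.0705%) for the earlier diet under the High Filter, and none was *Avp*, *Oxt* or *Crhbp*. Current HFD minus current RC gave a log2 fold change of 0.24 ± 0.31 for *Avp* (SE, adjusted p = 0.933). It gave 0.04 ± 0.23 for *Oxt* (adjusted p = 0.988), a value whose sign turned when any of 7 single libraries was left out, and 0.17 ± 0.22 for *Crhbp* (adjusted p = 0.939). Earlier HFD minus earlier RC gave -0.14 ± 0.30 for *Avp* (adjusted p = 0.954), -0.11 ± 0.23 for *Oxt* (adjusted p = 0.95) and -0.09 ± 0.22 for *Crhbp* (adjusted p = 0.960, and 0.0031 without HFD → RC replicate 15). With *Sim1* and *Otp* as a covariate, *Avp* had 0.56 for the current diet and -0.39 for the earlier diet. Under settings other than left-out libraries, *Oxt* reached 0.309 and -0.336, and none of these values was called. Whether the effect of the current diet depended on the earlier one was tested as an interaction, for which 4 genes (0.0313%) were called under the High Filter, with values of 0.60 ± 0.61 for *Avp* (adjusted p = 0.843), 0.26 ± 0.46 for *Oxt* (adjusted p = 0.921) and -0.13 ± 0.45 for *Crhbp* (adjusted p = 0.965). With single libraries left out the interaction ran from 0.26 to 1.04 for *Avp* and from 0.045 to 0.69 for *Oxt*, in both lowest without replicate 23 of HFD NoDS and highest without replicate 14 of HFD → RC.

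The other 4 pairs of groups share libraries with these comparisons and with each other. RC → HFD v RC NoDS called 5 genes (0.0392%) and HFD → RC v RC NoDS called 36 (0.282%). HFD NoDS v RC → HFD called 2 genes (0.0157%) and HFD NoDS v HFD → RC called 9 (0.0705%). *Avp*, *Oxt* and *Crhbp* were in none of these 4 lists. Of their values the farthest from 0 was that of *Avp* in HFD NoDS minus HFD → RC, 0.54 ± 0.44 on the log2 scale (SE, adjusted p = 0.793). It ranged from 0.20 (without replicate 23 of HFD NoDS) to 0.98 (without replicate 14 of HFD → RC) and was 0.86 with *Sim1* and *Otp* as a covariate. The last 2 values, like the one without replicate 19 of HFD NoDS, had an unadjusted p under 0.05, and none was called.

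With all 21 libraries and no covariate, *Crh* gave the only values under an unadjusted p of 0.05 among the 36 fold changes of the 4 genes in edgeR. HFD NoDS minus RC → HFD was -3.38 ± 1.32 on the log2 scale (SE, adjusted p = 0.624), where 1 of 15884 genes (0.0063%) was called under the Low Filter. The interaction was -4.17 ± 1.77 (adjusted p = 0.517), where 0 genes (0%) were called by edgeR under the Low Filter, with 1296 under an unadjusted p of 0.05, while DESeq2 called 115, limma-voom 11 and limma-trend 0, and *Crh* was not among them. The reads behind them numbered 7 in HFD NoDS and 93 in RC → HFD, with 45 in HFD → RC and 26 in RC NoDS that also enter the interaction, and replicates 8 and 11 of RC → HFD, with 4 and 1 reads, lay within the HFD NoDS range. Under the Low Filter the 5 remaining comparisons called 5 genes (0.0315%) in RC → HFD v RC NoDS, 25 (0.157%) in HFD → RC v RC NoDS, 4 (0.0252%) in HFD NoDS v HFD → RC, 7 (0.0441%) for the current diet and 11 (0.0693%) for the earlier diet, and *Crh* was in none of these. Over the 36 fold changes edgeR called 0 and had 2 under the unadjusted p, DESeq2 called 0 and had 3, limma-voom called 0 and had 1, and limma-trend called 0 and had 1, all of them for *Crh*.

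**Figure D2:**
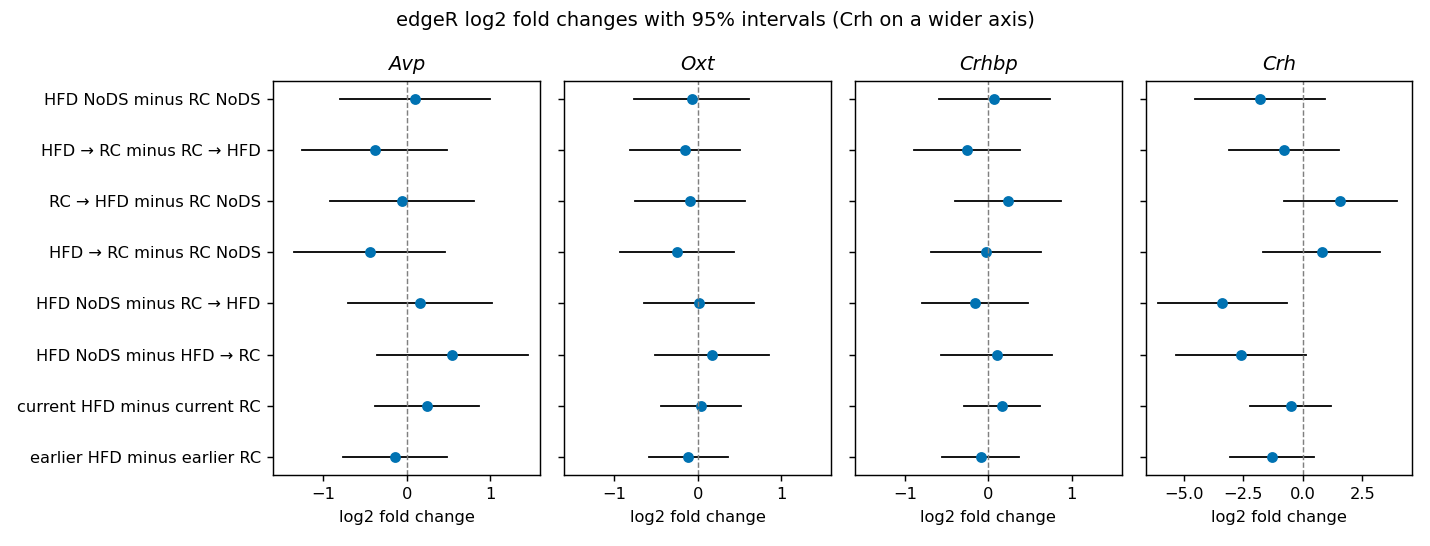
Log2 fold changes (points) with 95% intervals (lines) from edgeR for 8 of the comparisons, in panels for Avp, Oxt, Crhbp and Crh, the last on a wider axis and from the Low Filter. The intervals of Avp, Oxt and Crhbp all include 0, and for Crh that of HFD NoDS minus RC → HFD does not, with an adjusted p of 0.624.

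Libraries of the same diet differed widely in *Avp* and *Oxt*. On log2 reads the pooled SD within groups was 1.01 for *Avp*, rank 144 from the most variable of 12768 genes, and 0.702 for *Oxt*, rank 386. It was 0.563 for *Crhbp*, rank 817. The coefficient of variation of *Avp* within a group lay between 38.3% and 62.3%, and that of *Crh* between 86.4% and 186%, where sampling of its few reads alone would give between 25.4% and 84.5%.

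*Avp* and *Oxt* moved together from library to library. Over 21 libraries Pearson's r of log2 reads was 0.958 and Spearman's rho 0.934, each with a two-sided permutation p of 1e-05, the smallest that 100000 permutations can give, and 6e-05 after Benjamini-Hochberg adjustment over the 6 pairs of the 4 genes. With each group centred on its mean, r was 0.957 and rho 0.910. Without RC → HFD replicate 8 and HFD NoDS replicate 19, the 2 libraries farthest from the median of *Avp*, r was 0.943 and rho 0.911. The labels name no batch within which the relation could be recomputed. In bulk punches, fewer cells of a type and less RNA per cell cannot be told apart.

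**Figure D3:**
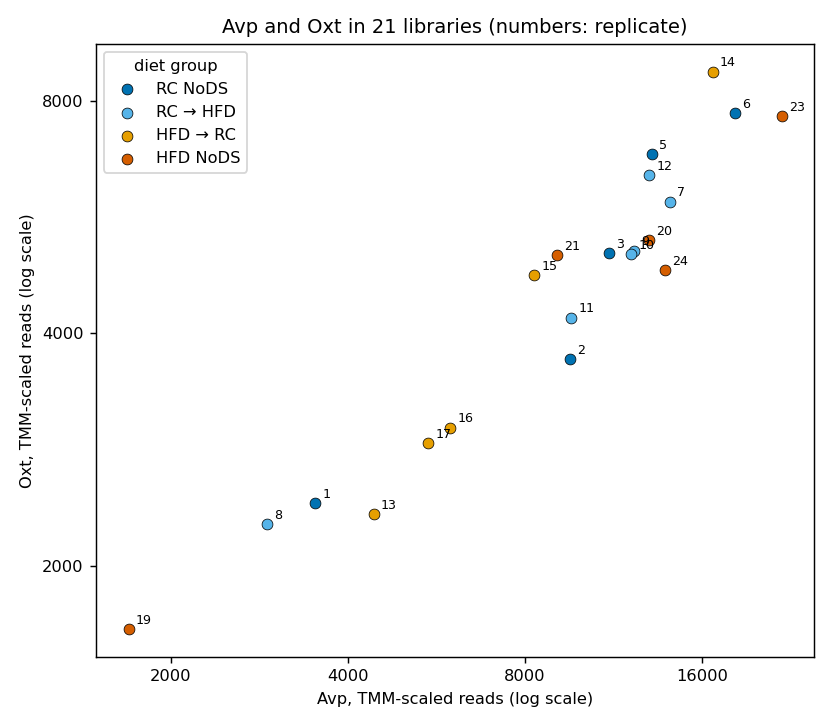
TMM-scaled reads of Avp (horizontal axis, log scale) and Oxt (vertical axis, log scale) in the 21 libraries, coloured by diet group and numbered by replicate. Libraries of all 4 groups lie along 1 rising band (Spearman's rho 0.934), with HFD NoDS replicate 19 at its lower end.

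The balance of the 2 hormone genes was less variable than either. Per kilobase, *Avp* reads exceeded *Oxt* reads 1.94-fold on average (SD 0.442, n = 21). HFD NoDS averaged a ratio of 2.05 ± 0.737 (SD, n = 5), RC → HFD 1.98 ± 0.405 (n = 6), RC NoDS 1.96 ± 0.402 (n = 5) and HFD → RC 1.76 ± 0.0803 (n = 5). These means differed by less than the spread within RC NoDS. The lowest ratios were 0.953 in HFD NoDS replicate 19, 1.20 in RC → HFD replicate 8 and 1.36 in RC NoDS replicate 1, the 3 libraries with the fewest *Avp* reads. HFD → RC replicate 13, which had the fourth fewest, had a ratio of 1.77.

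*Crhbp* tended to be low where the hormone genes were high, but over all libraries its adjusted p did not fall under 0.05, the threshold used for correlations. Pearson's r with *Oxt* was -0.484 (permutation p = 0.0259, adjusted 0.0777) and Spearman's rho -0.494 (permutation p = 0.024, adjusted 0.072). With *Avp*, r was -0.446 (permutation p = 0.0424, adjusted 0.0848) and rho -0.409 (permutation p = 0.0657, adjusted 0.131). On values centred on group means rho passed that threshold and r did not, with a rho of -0.640 with *Oxt* (permutation p within groups 0.0053, adjusted 0.0159) and -0.530 with *Avp* (0.02, adjusted 0.04). The 2 libraries farthest from the median were RC → HFD replicate 8 and HFD NoDS replicate 19. Without them, over 19 libraries, r was -0.424 with *Oxt* (permutation p = 0.0711) and -0.382 with *Avp* (permutation p = 0.106). *Crh*, with its few reads, showed no relation with the other 3 genes, with rho of 0.0516 for *Avp*, 0.0741 for *Oxt* and 0.169 for *Crhbp* (permutation p = 0.824, 0.75 and 0.46).

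Among the 12767 other genes of the High Filter, *Oxt* was the most like *Avp* and *Avp* the most like *Oxt* by Spearman's rho over 21 libraries. The next for *Avp* were *Kctd11* (rho 0.816), *Tns1* (0.805), *Gata2* (0.80) and *Xdh* (0.740). The next for *Oxt* were *Tns1* (0.799), *Erp29* (0.756), *Six3* (0.755) and *Ergic3* (0.747). *Tns1* stood in both lists, and on group-centred values 2 of the 5 genes nearest to *Avp* and 1 of the 5 nearest to *Oxt* were shared with these. For *Crhbp*, *Kif9* (0.781), *Pipox* (0.703), *Diras2* (0.669), *Plekhj1* (0.648) and *Foxb1* (0.643) ranked highest, 1 of the 5 being shared with the group-centred ranking, while *Avp* ranked 12470 and *Oxt* 12659 of 12767. For *Crh* the highest were *Sun1* (0.741), *Nop56* (0.740), *Timm8b* (0.687), *Rasa4* (0.680) and *Lhb* (0.663), on counts too sparse for the ranking to be a finding, and 0 of its 5 were shared with the group-centred ranking.

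*Avp* and *Oxt* are neighbours on chromosome 2 and carry nearly the same exon 2, so the counting of their reads was looked at through the sequence. In NCBIM37 (mm9), *Oxt* lies at chr2:130401909-130402790 on the plus strand and *Avp* at chr2:130406356-130408290 on the minus strand, each with 3 exons, their 3′ ends facing each other across 3565 bases, and no other annotated gene overlaps either. *Crh* lies at chr3:19593401-19595396 and *Crhbp* at chr13:96201326-96214786, both on the minus strand, with 2 and 7 exons and no overlapping gene. Exon 2, wholly coding and part of the neurophysin, is 202 bases long in both genes, at chr2:130406792-130406993 (minus strand) in *Avp* and chr2:130402327-130402528 (plus strand) in *Oxt*, and 193 of the 202 bases (95.5%) are equal. The exons are shown because a read inside them can fit both genes, and capitals mark the 9 bases that differ.
Avp exon 2: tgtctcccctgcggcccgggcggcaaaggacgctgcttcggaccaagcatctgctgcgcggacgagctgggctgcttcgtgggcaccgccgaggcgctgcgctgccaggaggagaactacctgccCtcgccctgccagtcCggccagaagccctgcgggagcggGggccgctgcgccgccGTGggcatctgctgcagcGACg
Oxt exon 2: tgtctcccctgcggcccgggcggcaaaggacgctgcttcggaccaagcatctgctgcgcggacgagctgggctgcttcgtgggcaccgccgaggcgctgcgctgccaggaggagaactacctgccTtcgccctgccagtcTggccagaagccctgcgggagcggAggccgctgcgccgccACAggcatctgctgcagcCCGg

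The longest stretch that both transcripts share is 127 bases, which exceeds the read length of 100 bases. Of the 478 windows of 100 bases in the *Avp* transcript, 28 occur unchanged in *Oxt* and 89 (18.6%) do so with up to 3 mismatches. Of the 438 windows in *Oxt*, 28 occur unchanged in *Avp* and 89 (20.3%) with up to 3 mismatches. Reads from these windows may be dropped or assigned to the wrong gene, so the levels of *Avp* and *Oxt* carry that uncertainty, and its part in their correlation was not tested. The hormone itself is encoded in exon 1, by 27 bases at chr2:130408182-130408208 (minus strand) in *Avp* and chr2:130402003-130402029 (plus strand) in *Oxt*, where 22 bases are equal and capitals mark the 5 that differ.
Avp hormone codons: tgctacTtccagaactgcccAAGAggc
Oxt hormone codons: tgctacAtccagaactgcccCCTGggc

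Among sums of regional markers, that of the arcuate nucleus, made up mostly of *Pomc*, moved with the hormone genes, while *Pomc* was the only one of its 6 genes to do so singly at a rho over 0.6. Reads of 6 arcuate genes (*Pomc*, *Npy*, *Agrp*, *Tac2*, *Ghrh* and *Kiss1*, with *Pomc* the most abundant and none at 0 in any library) summed to 14421, 11787, 13400, 17120 and 17170 in RC NoDS replicates 1, 2, 3, 5 and 6. They summed to 11572, 14324, 12670, 17087 and 11982 in HFD NoDS replicates 19, 20, 21, 23 and 24 and to 10571, 18251, 12872, 11635 and 12649 in HFD → RC replicates 13 to 17. In RC → HFD replicates 7 to 12 the sums were 13925, 8743, 12766, 15663, 14889 and 13397. The lowest sum belonged to RC → HFD replicate 8 and the highest to HFD → RC replicate 14, which were also low and high for *Oxt*. Over 21 libraries the sum went with *Oxt* at r = 0.762 (permutation p = 5e-05) and rho = 0.788 (permutation p = 5e-05), each 0.003 after adjustment over 60 relations of 15 marker lists with the 4 genes. With *Avp* it gave r = 0.687 (permutation p = 0.00056, adjusted 0.0168) and rho = 0.706 (permutation p = 0.00047, adjusted 0.0141). Without those 2 libraries, which lay farthest from the median of the sum, r was 0.691 for *Oxt* and 0.592 for *Avp*, and centred on group means it was 0.770 and 0.694. Punches entered the study only where *Agrp* and *Pomc* were well over *Hcrt*, and the part of punch position in the *Avp* and *Oxt* spread was not tested.

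The paraventricular markers gave a weaker relation. *Sim1* and *Otp* together, with *Otp* the more abundant and neither at 0 in any library, summed to 711, 733, 799, 1080 and 1217 reads in RC NoDS replicates 1, 2, 3, 5 and 6 and to 708, 1001, 806, 915 and 655 in HFD NoDS replicates 19, 20, 21, 23 and 24. They summed to 622, 545, 710, 749, 772 and 698 in RC → HFD replicates 7 to 12 and to 562, 1143, 618, 574 and 785 in HFD → RC replicates 13 to 17. The sum went with *Oxt* at r = 0.657 (permutation p = 0.00137, adjusted 0.0274) and rho = 0.643 (permutation p = 0.00198, adjusted 0.0396), and r was 0.537 without RC NoDS replicate 6 and HFD → RC replicate 14. With *Avp* it gave r = 0.561 (permutation p = 0.00826, adjusted 0.109) and rho = 0.549 (permutation p = 0.0113, adjusted 0.136). This sum consisted almost wholly of *Otp*, and *Sim1* alone had a rho of 0.151 with *Avp* and 0.219 with *Oxt*. Sums for 3 other nuclei did not pass the adjusted threshold, with rho of -0.225 and -0.138 for the ventromedial sum, 0.349 and 0.381 for the suprachiasmatic sum and -0.164 and -0.242 for the lateral hypothalamic sum. On values centred on group means, rho of the suprachiasmatic sum rose to 0.514 with *Avp* and 0.571 with *Oxt*, for which no p was computed. Of the 60 relations, 3 passed an adjusted 0.05 on both coefficients and 57 did not. Single markers with a rho over 0.6 were the most read suprachiasmatic one, *Six6* (0.664 with *Avp* and 0.721 with *Oxt*), *Pomc* (0.640 and 0.661), *Otp* (0.606 with *Oxt*) and, for *Crh*, the pituitary gene *Lhb* (0.663). The other suprachiasmatic markers were spread from *Grp* (-0.383 with *Avp* and -0.427 with *Oxt*) to *Prok2* (0.552 and 0.570).

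Other regions and cell types were present to a varying degree. The 6 suprachiasmatic markers summed to 482 to 1134 reads, led by *Six6*, with *Vip* at 0 in 4 libraries and *Nms* in 7. The 3 ventromedial markers, led by *Nr5a1*, summed to 1365 to 4237 reads. The 2 lateral hypothalamic markers, led by *Pmch*, summed to 378 to 2400. Anterior pituitary genes, 6 in number and led by *Cga*, reached from 49 to 2874 reads, with *Gh* at 0 in 7 libraries and *Prl* in 11. The 2 thalamic markers, led by *Prkcd*, summed to 270 to 565 reads, and the choroid plexus pair, led by *Kl*, to 212 to 474. Neurons were represented by 16715 to 23827 reads of 3 genes led by *Snap25*, astrocytes by 16017 to 23250 reads of 3 led by *Slc1a3* and oligodendrocytes by 27190 to 104356 reads of 3 led by *Mbp*. Microglia gave 2187 to 3147 reads of 3 genes led by *Csf1r*, endothelium 570 to 983 of 2 led by *Cldn5*, ependyma and tanycytes 1020 to 1716 of 2 led by *Foxj1*, and blood 496 to 5069 of 2 led by *Hbb-b1*. With none of the 4 genes did these sums relate past the adjusted threshold. The smallest adjusted p was that of the endothelial sum with *Crh* (rho 0.587, permutation p = 0.00634, adjusted 0.0951). With *Avp*, rho was 0.508 for the anterior pituitary sum and -0.513 for the neuron sum (permutation tests, both adjusted 0.147). Without RC → HFD replicate 8 and HFD → RC replicate 13, rho of the pituitary sum with *Avp* was 0.611.

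Receptors for the peptides were read at low to moderate levels. Of 6 receptor genes, 5 were listed and 4 passed the High Filter, and 0 of these 4 were called by edgeR in any comparison, with 5 of their 36 fold changes (13.9%), all of *Crhr1*, under an unadjusted p of 0.05. Over all genes tested 7.12% of the fold changes in the same 9 comparisons, which share libraries, were under it. *Crhr1*, the main pituitary and brain receptor for the *Crh* peptide, was the most read, at 200 to 452 reads per library, with *Oxtr* at 155 to 371, *Crhr2* at 104 to 296 and *Avpr1a* at 29 to 185. *Avpr1b*, the pituitary vasopressin receptor, was at 0 in 19 libraries. The median log2 fold change of the 4 was 0.19 in HFD NoDS minus RC NoDS, beside 0.01 over all genes tested, and -0.15 in HFD → RC minus RC → HFD, beside 0.00. The urocortins, the other ligands of the *Crh* receptors, lay under the High Filter, with *Ucn* at 0 in 20 libraries, *Ucn2* in 13 and *Ucn3* in 8.

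Genes that process and pack the precursors were abundant. All 9 passed the High Filter and 0 were called by edgeR in any comparison, although 7 of 81 fold changes (8.64%) had an unadjusted p under 0.05, with a median log2 fold change of -0.01 in both HFD NoDS minus RC NoDS and HFD → RC minus RC → HFD. *Pcsk1n*, which encodes an inhibitor of the convertase *Pcsk1*, was the most read, at 23349 to 36699 reads. Of 6 genes of glucocorticoid feedback, which restrains *Crh*, 0 of the 6 tested were called by edgeR (4 of 54 fold changes, or 7.41%, under an unadjusted p of 0.05), and the most read, *Tsc22d3*, ran from 1237 to 2518 reads. Their median log2 fold change was -0.05 in HFD NoDS minus RC NoDS and 0.04 in HFD → RC minus RC → HFD. *Cd38* and *Lnpep*, which act in the release and the breakdown of oxytocin, were not called either, with 0 of 18 fold changes under an unadjusted p of 0.05, with *Lnpep* the more read at 320 to 924 reads and medians of -0.09 and -0.22. Of 4 paraventricular transcription factors 3 were tested and 0 called by edgeR (5 of 27 fold changes, or 18.5%, under an unadjusted p of 0.05), with *Arnt2*, the partner of *Sim1*, at 4236 to 6258 reads and *Sim1* under the High Filter, and medians of 0.11 and 0.08.

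Peptides known from the same or neighbouring neurons held the only gene called by edgeR among those of the 38 listed genes that passed the High Filter. Of 8 such genes, 1, *Trh*, was called in HFD NoDS v RC NoDS, with a log2 fold change of 1.79 ± 0.17 (SE, adjusted p = 2.36e-07). The paper also lists *Trh* for that comparison. It reports similar trends by RT-qPCR in the sequenced tissue and in tissue of other animals. *Trh*, thyrotropin-releasing hormone, averaged 598 reads in RC NoDS, 1282 in RC → HFD, 1431 in HFD → RC and 2042 in HFD NoDS. Group means of *Hcrt*, a lateral hypothalamic marker, stood in the same order, at 74.4, 201.7, 272.6 and 477.6 reads. Its medians did not, at 75, 199.5, 256 and 234 reads, and its HFD NoDS libraries ran from 93 to 1051. The paper reports *Hcrt*, measured as such a lateral marker by RNA-seq and RT-qPCR, as similar in all groups. Both markers of that region, *Pmch* (the more abundant) and *Hcrt*, were above 0 in all libraries and summed to 1003, 1827, 696, 439 and 378 reads in RC NoDS replicates 1, 2, 3, 5 and 6 and to 678, 2344, 2013, 753 and 2003 in HFD NoDS replicates 19, 20, 21, 23 and 24. In RC → HFD replicates 7 to 12 they summed to 2400, 2400, 2060, 829, 831 and 1412 and in HFD → RC replicates 13 to 17 to 1842, 791, 954, 1427 and 902. Group means of these sums, and of *Pmch* alone, were highest in RC → HFD and so did not stand in the order of *Trh*. The sums overlapped between groups, and the part of punch position in the *Trh* values was not tested. Its log2 fold change was also called in HFD → RC minus RC NoDS (1.28 ± 0.17), RC → HFD minus RC NoDS (1.13 ± 0.16), current HFD minus current RC (0.82 ± 0.11) and earlier HFD minus earlier RC (0.97 ± 0.11), and *Trh* was called over all 4 groups (adjusted p = 4.74e-06). It was not called in HFD → RC minus RC → HFD, HFD NoDS minus RC → HFD, HFD NoDS minus HFD → RC or the interaction. Of the 72 fold changes of the 8 genes, 15 (20.8%) had an unadjusted p under 0.05, beside 7.12% over all genes, and 8 of the 15 were of *Trh*. The median log2 fold change of the 8 was 0.04 in HFD NoDS minus RC NoDS and 0.09 in HFD → RC minus RC → HFD. The most read of them, *Vgf*, ran from 5988 to 11385 reads.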

How the data were processed

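RNA was measured in 21 VH libraries, each a pool of 2 mice. The authors aligned reads with STAR 2.5.1b to mm9, merged runs with Picard 2.7.1 (submitters' processing notes), removed ribosomal RNA and mitochondrial reads, drew reads at random until all libraries had a similar depth, and deposited whole-number counts of reads per gene. How a read that fits more than 1 gene was counted is not given in the sources used here. No 2 libraries were identical.

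EdgeR 4.0.16 under R 4.3.3 was used for the main tests, as quasi-likelihood F-tests on TMM-scaled counts of all 21 libraries, with 1 mean per group. Benjamini-Hochberg adjustment covered every gene tested, and an adjusted p under 0.15 was called (under 0.05 for correlations). P-values measure the spread between these libraries. Genes averaging at least 50 reads (High Filter) were tested. *Crh* fell under that filter, which the design had not foreseen, and was tested with at least 5 reads (Low Filter). Each SE is the fold change over the root of its F statistic, and intervals are 95%. Reads per kilobase used TMM-scaled reads and the exons of the GENCODE vM1 annotation, which also gave positions and transcripts. Correlations used log2 of TMM-scaled reads plus 1 and two-sided tests of 100000 permutations (scipy 1.17.1, pandas 2.3.3 and numpy 2.4.6 in Python 3.11.15). Plots used matplotlib 3.10.9.

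Alternatives were DESeq2 1.42.0, limma 3.58.1 (voom, and trend on log2 of counts plus 1), other filters and scaling, a robust dispersion, only the libraries compared, reads summed by symbol or over *Avp* and *Oxt*, *Sim1* and *Otp* as a covariate, and each library left out. Tests were checked on simulated data, and no outcome of that check is given here. The members and lists were chosen with earlier results of these data known, and the permutation tests of marker lists were added after seeing the data. Named are the 4 genes, list genes called or most read, list genes under the High Filter, the 5 genes most like each member, and markers with a rho over 0.6.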

Additional observations from a re-analysis of the deposited data

Results flagged for a closer look

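Over 16 tests of the lowest and highest library (4 genes in 4 groups), 1 library passed the limit for the gap to its neighbour as a share of the range of the group. HFD NoDS replicate 23 had 6 reads of *Crh* while the other 4 libraries had 0 or 1, a gap of 0.833 of the range of the group. Chance marks about 1 in 20 groups in this way where values are normally distributed. Counts this low, with ties at 0, are not, and so few reads carry a large counting error.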

How the results depend on the processing

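Over 1113 alternative values of the 36 fold changes, 0 passed the threshold, and the smallest adjusted p was 0.405. The sign turned in 54 of them, and none of the fold changes concerned was called. HFD NoDS minus RC NoDS for *Avp* was -0.11 under limma-voom and -0.13 under limma-trend, and for *Oxt* 0.048 with reads of *Avp* and *Oxt* summed. HFD NoDS minus RC → HFD was -0.077 (limma-voom), -0.072 (limma-trend) and -0.096 (*Sim1* and *Otp* covariate) for *Avp* and -0.062, -0.056 and -0.17 for *Oxt*. RC → HFD minus RC NoDS was 0.27 for *Avp* and 0.14 for *Oxt* with that covariate, which gave *Crhbp* 0.078 in HFD → RC minus RC NoDS and -0.027 in HFD NoDS minus HFD → RC. Current HFD minus current RC for *Crh*, -0.50 ± 0.83 (SE) in edgeR, was 0.11 under limma-voom and 0.061 under limma-trend. The cause was not tested.

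With each library left out in turn, the values whose sign turned ranged as follows. *Avp* ran from -0.241 to 0.380 in HFD NoDS minus RC NoDS, from -0.286 to 0.191 in RC → HFD minus RC NoDS and from -0.182 to 0.439 in HFD NoDS minus RC → HFD. *Oxt* ran from -0.291 to 0.149 in HFD NoDS minus RC NoDS, from -0.573 to 0.00286 in HFD → RC minus RC → HFD, from -0.272 to 0.0995 in RC → HFD minus RC NoDS, from -0.200 to 0.241 in HFD NoDS minus RC → HFD, from -0.0467 to 0.593 in HFD NoDS minus HFD → RC and from -0.0693 to 0.250 in current HFD minus current RC. *Crh* ran from -0.105 to 1.15 in HFD → RC minus RC NoDS. *Crhbp* ran from -0.0612 to 0.243 in HFD NoDS minus RC NoDS, from -0.154 to 0.165 in HFD → RC minus RC NoDS, from -0.300 to 0.0105 in HFD NoDS minus RC → HFD, from -0.0918 to 0.269 in HFD NoDS minus HFD → RC, from -0.163 to 0.00306 in earlier HFD minus earlier RC and from -0.323 to 0.0366 in the interaction. Current HFD minus current RC for *Oxt* turned without RC NoDS replicates 1 or 2, RC → HFD replicate 12, HFD → RC replicates 13, 16 or 17 or HFD NoDS replicate 23.

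The other 20 kept their sign. Beside those given above, *Avp* ran from -0.881 to -0.196 in HFD → RC minus RC NoDS, from 0.0725 to 0.461 for the current diet and from -0.361 to -0.00389 for the earlier diet. *Oxt* ran from -0.665 (unadjusted p under 0.05, without HFD → RC replicate 14) to -0.0553 in HFD → RC minus RC NoDS and from -0.322 to -0.00306 for the earlier diet. *Crh* ran from -5.40 to -2.88 in HFD NoDS minus RC → HFD and from -6.18 to -3.27 in the interaction, in both farthest from 0 without HFD NoDS replicate 23. *Crhbp* ran from -0.399 to -0.0666 in HFD → RC minus RC → HFD, from 0.133 to 0.392 in RC → HFD minus RC NoDS and from 0.0696 to 0.251 for the current diet.

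Without the 2 libraries farthest from the median, the correlations of *Crh* turned negative, with r and rho of -0.101 and -0.082 for *Avp*, -0.0731 and -0.0508 for *Oxt* and -0.119 and -0.0342 for *Crhbp*. Those of *Avp* with *Oxt* kept their side of the threshold. Of *Crhbp* with *Avp* and *Oxt*, rho on group-centred values passed an adjusted 0.05 and the other settings did not. Changing 1 setting at a time from edgeR at the High Filter, numbers of genes called varied from 1 to 44 in HFD NoDS v HFD → RC (9 in edgeR), 8 to 17 in RC NoDS v HFD NoDS (10), 1 to 32 in HFD NoDS v RC → HFD (2), 7 to 147 in HFD → RC v RC NoDS (36), 0 to 5 in RC → HFD v HFD → RC (1), 4 to 96 in RC → HFD v RC NoDS (5), 11 to 31 over all 4 groups (19), 5 to 12 for the current diet (6), 2 to 35 for the earlier diet (9) and 0 to 116 for the interaction (4), with DESeq2 highest in 8 of them, and no filter highest for the earlier diet and over all 4 groups, which DESeq2 did not test. The genes tested changed too, since DESeq2 drops genes by its own filter and kept 886 in RC → HFD v RC NoDS, 12271 for the earlier diet and 12767 elsewhere, against 12768 in edgeR. Leaving out libraries in turn gave 1 to 205 genes in HFD → RC v RC NoDS, 1 to 41 in RC → HFD v HFD → RC, 9 to 80 over all 4 groups, 2 to 70 for the earlier diet and 4 to 10 for the current diet, each highest without HFD → RC replicate 16. It gave 0 to 124 for the interaction and 4 to 11 in RC → HFD v RC NoDS (highest without HFD NoDS replicate 20), 1 to 31 in HFD NoDS v RC → HFD (HFD NoDS replicate 19), 1 to 13 in HFD NoDS v HFD → RC (RC → HFD replicate 8) and 5 to 14 in RC NoDS v HFD NoDS (RC NoDS replicate 6). No paired analysis was possible because each library pooled mice of a single diet group and no label pairs libraries between groups.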
